A study of Mus musculus with 6 samples.

Results

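Ago footprints on genes of protein phosphatases were examined in bone marrow-derived macrophages with and without APOBEC1. A footprint counted here when it overlapped, on the same strand, a GENCODE vM1 gene named Ppp followed by a digit, Ptpn, Ptpr, Ptp4a or Dusp followed by a digit. This took 80 of 6270 footprints and 33 of 2223 genes in the table, out of 130 gene names in the annotation that fit the rule. The assay was HITS-CLIP, the sequencing of RNA that stays cross-linked to Argonaute (Ago), the protein that carries miRNAs, through an immunoprecipitation. The cells were from C57BL/6 littermates, 3 wild-type (WT) and 3 Apobec1-/- (KO) mice, aged 6 to 12 weeks. All were matured for 7 days with M-CSF and precipitated with the Ago antibody 2A8. APOBEC1, which Apobec1-/- mice lack, converts C to U in mRNA. The labels do not give which part of the gene was removed.

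Protein phosphatases take phosphate groups off proteins and so reverse the work of kinases. PP1 and PP2A act on serine and threonine, and each is a small catalytic subunit steered by regulatory subunits. Calcineurin is the calcium-dependent member, best known for activating NFAT transcription factors. The dual-specificity phosphatases (Dusp) include the MAP kinase phosphatases, which switch off ERK, JNK and p38 and so limit cytokine production by macrophages. Tyrosine phosphatases exist as cytoplasmic enzymes (Ptpn) and as receptors (Ptpr), of which Ptprc is CD45, the surface phosphatase of leukocytes. Ago bound to miRNAs on the 3′ UTR of an mRNA lowers its stability or translation.

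The table gives 1 Ago occupancy per genotype, a ratio of footprint signal to the RNA-Seq expression of the transcript, combined by the authors over the 3 libraries. No library has a value of its own, so KO and WT were not tested against each other and no value has an SD. Each footprint also carries the number of WT and of KO libraries that held it. The table holds no read counts, so depth is unknown. Apobec1 itself had 3 footprints, with sums of 0.312 in KO and 0.372 in WT, which do not check the genotype because the removed part is not given. Among markers fixed for other cells, 0 of those for T cells, B cells, neutrophils, fibroblasts and dendritic cells had a footprint. Of the macrophage symbols 7 of 11 had one, Csf1r and Lyz2 among them. The symbols Emr1 and Adgre1 in that list name the same gene. These are bulk samples, in which fewer cells of a type and less RNA per cell cannot be told apart.

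Sites for miRNAs were looked for in the footprints first, since miRNAs guide Ago. A 7-nt match to bases 2 to 8 of the miRNAs of 26 families lay in 11 of the 80 footprints (13.75%), against 19.87% of all footprints. The second common site form, a match to bases 2 to 7 followed by A, also lay in 11 (13.75%, against 14.31%), and 20 of 80 (25%) had either form, against 30.24%. The median length was 71 nt for the phosphatase footprints and 72 nt for all. The families were chosen from miRNAs known in macrophages, and the miRNA reads of these libraries were not analysed here. Mature sequences of some of the miRNAs with a site in the footprints described most are shown with the seed, bases 2 to 8, in capitals. They are from RefSeq on GRCm38.p6:

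miR-101a-3p: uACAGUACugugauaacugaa
miR-223-3p: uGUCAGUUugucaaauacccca
miR-30a-5p: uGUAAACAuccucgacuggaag
miR-23a-3p: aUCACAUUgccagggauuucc
miR-19b-3p: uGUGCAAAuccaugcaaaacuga
miR-16-5p: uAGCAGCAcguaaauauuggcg
miR-26a-5p: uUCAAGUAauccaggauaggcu

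The target sites follow, each 29 nt on the transcript strand, 5′ to 3′, mm9, with the 7 matched bases in capitals. They were picked after the values were seen, from genes described below: Dusp1 and Ppp1r12a for strong footprints, Ppp1r12c and Ppp1r15b for footprints in most libraries, and Ptpre, Ptpn7 and the calcineurin genes for large differences. The Ptprc sites stand for the gene with most footprints among receptor phosphatases, and their own footprints were weak. The first 6 match bases 2 to 8, the other 5 bases 2 to 7 with the A:

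Dusp1 and miR-101, chr17:26642737-26642765, minus strand: atacctcaattttgtgtttgcGTACTGTa
Ppp1r12c and miR-15/16, chr7:4433635-4433663, minus strand: gttcccgcaccatatttatacTGCTGCTt
Ppp1r15b and miR-26, chr1:135033475-135033503, plus strand: acccgtgcccactctgtctctTACTTGAg
Ptprc and miR-30, chr1:139960044-139960072, minus strand: tcttgaatttccccactgtttTGTTTACt
Ptprc and miR-23, chr1:139960782-139960810, minus strand: tgtgcgtgtgtatgacatctaAATGTGAt
Ptpn7 and miR-23, chr1:137041564-137041592, plus strand: aacaaacaaacaaacaaaaatAATGTGAg
Dusp1 and miR-223, chr17:26642690-26642718, minus strand: cagagcaggtttgctttcggcACTGACAg
Ppp1r12a and miR-19, chr10:107714360-107714388, plus strand: agagaagcaaagcagcaggacTTGCACAc
Ppp3ca and miR-30, chr3:136598578-136598606, plus strand: atttcttatactctattgtacGTTTACAg
Ppp3r1 and miR-23, chr11:17099242-17099270, plus strand: ccattatacacaagggaaaccATGTGAAa
Ptpre and miR-223, chr7:142875918-142875946, plus strand: ctcattcccaacggcccgcccACTGACAc

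In the miR-101 site of Dusp1 the 7 matched bases are also followed by A, so it has both site forms. It lies at the 5′ edge of the footprint, 27 nt from its centre, and the window shown runs past that edge. miR-101 has been described as a repressor of Dusp1 in macrophages. The miR-30 site of Ppp3ca lies 2 nt from the centre of its footprint, that of Ptpn7 for miR-23 2.5 nt and that of Ppp1r12a for miR-19 3.5 nt. A match of letters is a description, not a shown site of binding.

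Taken as a set, the phosphatase footprints went both ways between genotypes. Of the 80, 39 were higher and 41 lower in KO, while 48.71% of all footprints were higher and 51.29% lower. The median log2 ratio of KO over WT was -0.06 (95% interval over footprints -0.60 to 0.39), against -0.04 over the whole table. At least 2-fold higher in KO were 19 (23.75%), where 18.9% of all 6270 footprints were. At least 2-fold lower were 17 (21.25%), where 24.2% of all were. Median occupancy was 0.358 in KO and 0.300 in WT, against 0.377 and 0.406 for all footprints. Summed by gene, 17 genes were higher and 16 lower in KO, against 1063 and 1160 of 2223. At least 2-fold higher were 3 of 33 (11.7% of all 2223 genes) and at least 2-fold lower 8 of 33 (17.9% of all genes). The 3 were Ptpre, Ptpn6 and Dusp22, and the 8 were Dusp4, Dusp6, Ppp2r5c, Ppp3ca, Ppp3r1, Ppp6r3, Ptpn7 and Ptpn12. With a pseudocount of 1 in place of 0.00161, added to each value before the ratio, only Ptpre, Ptpn6 and Dusp6 of these 11 remained past 2-fold (log2 ratios of 1.11, 1.01 and -1.44). Per the series design text, a footprint was listed when 2 libraries of either genotype held it. The Ptpre footprint met this through KO alone, and the Dusp6 footprint lower in KO through WT alone. The ratios of Ptpre and Dusp6 are therefore not independent of how footprints were chosen. None of the differences given here and below has a replicate check.

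**Figure D1:**
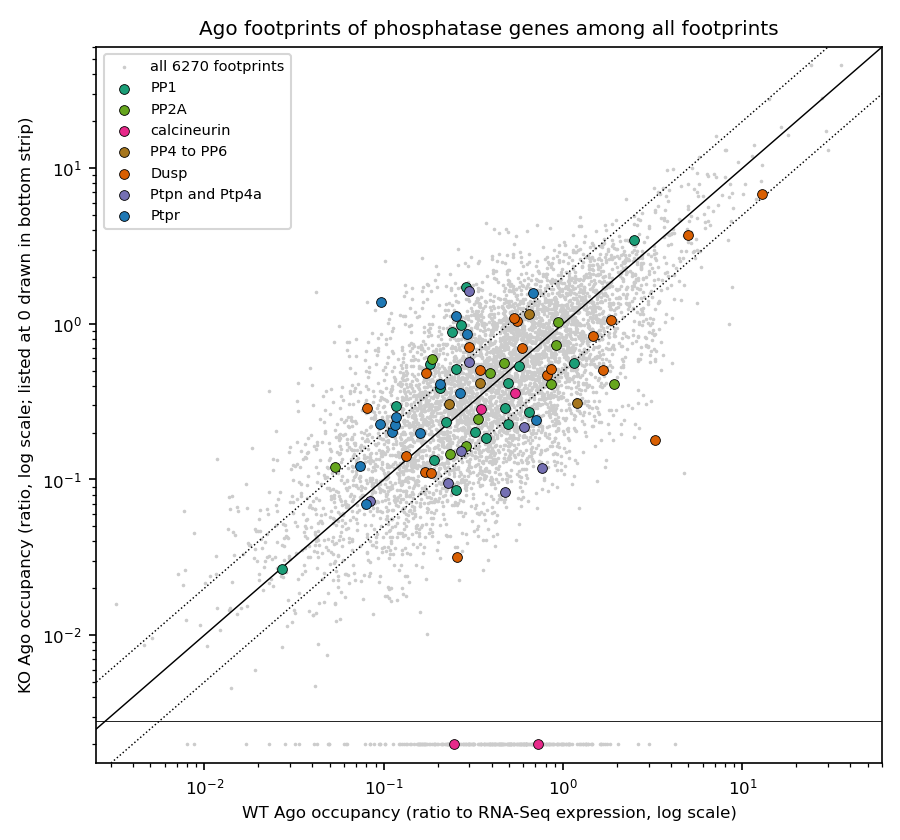
Each point is a footprint, with its WT occupancy on the horizontal axis and its KO occupancy on the vertical axis, both on log scales. Grey points are all 6270 footprints and coloured points the 80 of phosphatase genes. The solid line marks equal values and the dotted lines 2-fold differences. The Dusp1 footprints stand at the upper right, and the 2 calcineurin footprints listed at 0 in KO lie in the strip at the bottom.

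Among the MAP kinase phosphatases, 4 of 10 annotated genes carried 7 footprints, of which 5 were lower in KO, beside 51.29% of all footprints. Dusp1, the early-response phosphatase of p38 and JNK, had the strongest footprint of all phosphatase genes. It lay at chr17:26642683-26642745 in the 3′ UTR, was found in all 6 libraries, and had occupancies of 6.82 (KO) and 12.9 (WT), a log2 ratio of -0.92. By mean occupancy it ranked 17 of 6270. The other Dusp1 footprint (chr17:26643045-26643108), in 2 KO and 3 WT libraries, had 3.70 and 4.98, a log2 ratio of -0.43, and ranked 75. Both were thus lower in KO by less than 2-fold, and the gene's sum was 10.5 in KO and 17.9 in WT.

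Dusp6, a cytoplasmic phosphatase of ERK, had footprints that differed from each other. The one at chr10:98729577-98729653 had 0.179 in KO and 3.24 in WT and was held by 1 KO and 3 WT libraries. The one nearer the start of the 3′ UTR, at 360 nt against 685 nt (chr10:98729259-98729321), had 0.508 in KO and 0.346 in WT and was held by 2 libraries of each genotype. The first had a log2 ratio of -4.17, the second of 0.55. The gene's sum, 0.687 in KO and 3.59 in WT (-2.38), thus takes its direction from the footprint held by 1 KO library. Its KO value of 0.179 was identical to that of 5 other footprints of the table. When footprints had to be in 2 or more KO and 2 or more WT libraries, the log2 ratio of Dusp6 turned to 0.55.

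Dusp4, a nuclear MAP kinase phosphatase, was lower in KO at both of its footprints. At chr8:35882319-35882391, held by 2 libraries of each genotype, the values were 0.508 in KO and 1.68 in WT (-1.72). At chr8:35882750-35882841 they were 0.514 and 0.854 (-0.73). Dusp7, another ERK phosphatase, had 0.703 in KO and 0.588 in WT (0.26) at a footprint with a miR-19 match 1 nt from its centre.

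The atypical Dusp genes, which lack the MAP kinase docking domain, had 12 footprints on 3 of 14 annotated genes, 6 higher and 6 lower in KO. Dusp11, an RNA phosphatase, had 6 spread over a 3′ UTR of 5340 nt. Those nearest the start of the 3′ UTR, at 268 and 808 nt, were higher in KO (1.09 and 0.534, then 1.05 and 0.551 in KO and WT). The next 3, at 1389, 3347 and 4514 nt, were lower, with 0.471 and 0.818, 1.05 and 1.86, and 0.832 and 1.47. The last, at 5116 nt, was higher, with 0.712 and 0.300. No KO library held the footprints at 3347 and 5116 nt. The KO values at 1389 and 3347 nt were identical to those of 4 and 3 other footprints. The sums, 5.21 in KO and 5.54 in WT, differed little. Dusp3, a phosphatase of ERK and JNK, had 5 weak footprints with KO values from 0.0319 to 0.288, of which 4 were in no KO library. The one nearest the start of the 3′ UTR, its strongest, had 0.288 in KO and 0.0803 in WT (1.82), while the sum of the gene gave -0.27. The next had 0.0319 and 0.255 (-2.94), and the last 3 had 0.109 and 0.184, 0.141 and 0.132, and 0.111 and 0.170. Dusp22 had a single footprint, 0.480 in KO and 0.173 in WT (1.47), in 1 KO and 2 WT libraries.

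Receptor tyrosine phosphatases were mostly higher in KO. All 5 measured genes of 22 annotated had a higher sum in KO, and 12 of 14 footprints were higher, 6 of them at least 2-fold, with a median log2 ratio of 0.97. Over all footprints 48.71% were higher and 18.9% at least 2-fold higher, with a median log2 ratio of -0.04. Of all 2223 genes, 1063 had a higher sum in KO. By sums, Ptpre alone of the 5 genes was at least 2-fold higher. Footprints of a gene share their transcript, and Ptprc and Ptprj alone gave 10 of the 14. The median G+C content of the 14 was 39.99%, and 7 of 14 were in at least 2 KO libraries, beside 40.14% of all footprints.

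Ptprc had 6 footprints between 189 and 1046 nt into its 3′ UTR of 1648 nt, all in exactly 2 WT libraries and in 1 or 2 KO libraries. From the start of the 3′ UTR, the KO and WT values were 0.251 and 0.117, then 0.0697 and 0.0800, 0.224 and 0.116, 0.228 and 0.0954, 0.122 and 0.0734, and 0.411 and 0.206. The footprint with the miR-23 match, the second, was the only one of the 6 not higher in KO. The last held the miR-30 match, 7.5 nt from its centre, and was the strongest in both genotypes. Summed, Ptprc had 1.31 in KO and 0.688 in WT (0.92).

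Ptprj, also known as CD148, had 4 footprints, 3 of them higher in KO by log2 ratios of 2.14, 1.56 and 1.21, each in 2 libraries of both genotypes. At chr2:90275842-90275921 the values were 1.12 in KO and 0.253 in WT, at chr2:90274793-90274857 they were 0.861 and 0.291, and at chr2:90274469-90274532 they were 1.57 and 0.679. The other, between the last 2, was in no KO library and had 0.243 in KO and 0.708 in WT (-1.54). Without it the log2 ratio of the sum went from 0.98 to 1.54.

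Ptpre, which acts on Src-family kinases and voltage-gated potassium channels, had the highest ratio of the 80. Its footprint at chr7:142875891-142875981 had 1.37 in KO and 0.0969 in WT (3.80), in 2 KO and 1 WT libraries. It was the only footprint of the 80 held by fewer than 2 WT libraries, where 5.12% of all footprints were. Per the series design text a footprint needed 2 libraries of either genotype, which Ptpre met in KO alone. Its higher KO value is therefore not independent of how footprints were chosen. Where 2 or more libraries of both genotypes were required, Ptpre dropped out. Ptpra, an activator of Src, had 0.200 and 0.111 at 1 footprint and 0.358 and 0.267 at the other, in KO and WT. Ptpro, in 0 KO and 2 WT libraries, had 0.200 and 0.159.

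**Figure D2:**
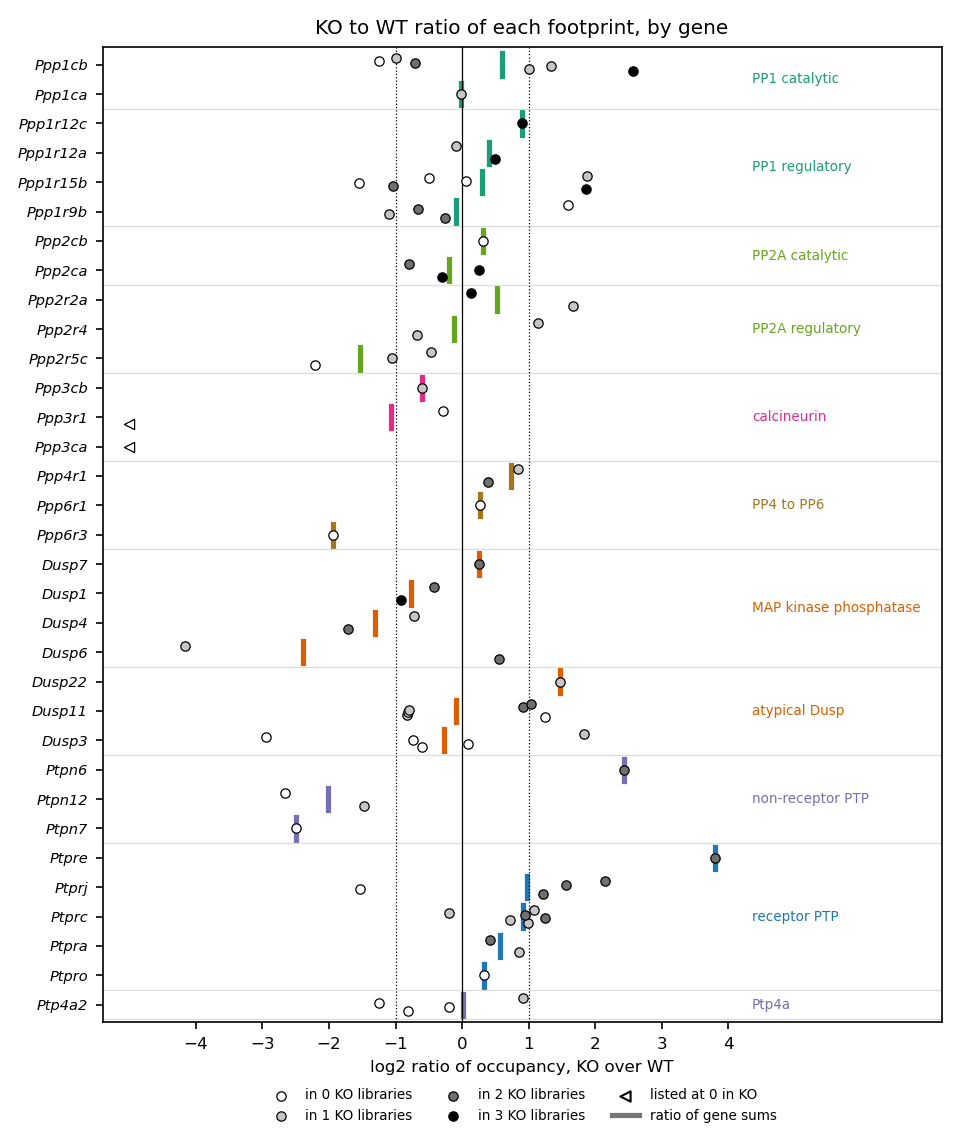
The log2 ratio of occupancy, KO over WT, is shown on the horizontal axis for each of the 80 footprints, by gene and role. The fill gives the number of KO libraries that held the footprint, coloured bars the ratio of the gene's sums, and triangles footprints listed at 0 in KO, which have no ratio. Receptor phosphatases lie mostly right of 0, calcineurin genes left of it, and 12 of the 20 genes with several footprints on both sides.

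The cytoplasmic tyrosine phosphatases had 4 footprints on 3 of 17 annotated genes. Ptpn6, which encodes SHP-1, the phosphatase that inhibitory receptors of myeloid cells recruit, had 1.62 in KO and 0.300 in WT (2.43). That footprint (chr6:124670730-124670792) was in 2 libraries of each genotype. Ptpn12, which acts on cytoskeletal adaptors, was lower in KO at both footprints. The values were 0.118 in KO and 0.760 in WT at the first, in 0 KO libraries, and 0.217 and 0.605 at the second, in 1 KO library. Ptpn7, a haematopoietic phosphatase of ERK and p38, had 0.0827 and 0.475 at the footprint with the miR-23 match, again in 0 KO libraries (-2.50). The KO values of Ptpn7 and of the first Ptpn12 footprint were each identical to that of 1 other footprint. Ptp4a2, a small phosphatase anchored to membranes by a lipid, had 4 footprints, 3 lower and 1 higher in KO, with sums of 0.884 and 0.880. The lower ones, all in no KO library, had 0.152 and 0.269, 0.0728 and 0.0835, and 0.0947 and 0.227, and the higher one had 0.564 and 0.300.

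For PP1, 2 of 3 catalytic genes and 4 of 30 regulatory genes had footprints. Ppp1cb, the beta catalytic subunit, had 6 within the first 1561 nt of a 3′ UTR of 4468 nt. The direction of the ratio, though not its size, followed their order. The 3 nearest the start, at 304, 446 and 680 nt, were higher in KO by log2 ratios of 2.57, 1.00 and 1.34. The 3 farther along, at 889, 1189 and 1561 nt, were lower by -0.71, -1.25 and -0.99. The first (chr5:32793697-32793768) had 1.72 in KO and 0.288 in WT and was in 3 KO and 2 WT libraries. The next 2 had 0.510 and 0.254, and 0.297 and 0.117. The fourth had 0.290 and 0.476, the fifth, in no KO library, 0.271 and 0.646, and the last 0.186 and 0.371. This order was noticed in the data and was not tested. Summed, Ppp1cb had 3.27 and 2.15 (0.60), and its strongest footprint alone gave 2.57. It also passed 2-fold with footprints in 2 or more WT and 2 or more KO libraries (1.39) and with those of a mean occupancy that reached the table median (1.09). Ppp1ca, the alpha catalytic subunit, had the lowest mean occupancy of the 80 footprints, 0.0268 in KO and 0.0272 in WT.

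Among PP1 regulators, Ppp1r12a, the targeting subunit of myosin phosphatase, had the next strongest footprint after those of Dusp1. It was found in all 6 libraries with 3.47 in KO and 2.47 in WT (0.49) and carries the miR-19 match shown. Its other footprint had 0.534 and 0.568, in 1 KO and 2 WT libraries. Ppp1r12c, a related targeting subunit, had 0.387 and 0.207 (0.90), also in all 6 libraries, at the footprint with the miR-15/16 match. Dusp1, Ppp1r12a and Ppp1r12c held the 3 footprints of the 80 found in all 6 libraries (3.75%, against 5.885% of the table).

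Ppp1r15b, which directs PP1 to the translation factor eIF2α, had 6 footprints with ratios in both directions. The first, with the miR-26 match and centred 7 nt into the 3′ UTR, had 0.982 in KO and 0.270 in WT (1.86) and was in 3 KO and 2 WT libraries. The second had 0.560 and 1.16 (-1.04) in 2 KO and 3 WT libraries. The last, near the end of the 3′ UTR, had 0.885 and 0.241 (1.87) in 1 KO library. The other 3, in no KO library, had 0.0855 and 0.252, 0.233 and 0.223, and 0.133 and 0.189. The gene's sums, 2.88 and 2.33, gave 0.30, while its strongest footprint gave -1.04. Ppp1r9b, the scaffold spinophilin, had 3 footprints lower in KO, with 0.414 and 0.493, 0.228 and 0.491, and 0.203 and 0.323. The other, in no KO library, was higher, with 0.549 and 0.182.

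Of PP2A, both catalytic genes and 3 of 14 regulatory genes had footprints, and the catalytic genes were at log2 ratios of -0.19 (Ppp2ca) and 0.32 (Ppp2cb). Ppp2ca, the alpha catalytic subunit, had 3 footprints within the first 563 nt of a 3′ UTR of 5807 nt, in 2 or 3 libraries of each genotype. Their KO and WT values were 0.735 and 0.908, 0.556 and 0.466, and 0.165 and 0.289. Ppp2cb, the beta subunit, had 0.486 and 0.390 at its footprint, in 0 KO libraries. Ppp2r2a, a B-type regulatory subunit, had 2 footprints that overlap by 6 nt, both higher in KO. The values were 0.596 in KO and 0.187 in WT (1.66), in 1 KO library, and 1.03 and 0.943 (0.13), in 3 KO libraries. Ppp2r4, an activator of PP2A, had 0.146 and 0.235 at 1 footprint and 0.1198 and 0.0533 at the other.

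Ppp2r5c, a B-type subunit, was the only PP2A gene past 2-fold, with all 3 footprints lower in KO and sums of 1.07 and 3.11 (-1.54). Of these, 2 lay in introns (chr12:111809055-111809130 and chr12:111809676-111809763), the only footprints of the 80 outside a 3′ UTR. They had 0.413 and 1.91, in 0 KO libraries, and 0.412 and 0.859, in 1 KO library. The footprint in its 3′ UTR had 0.243 and 0.335 (-0.46), so the 2-fold difference of the gene came from the introns.

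None of the 3 measured calcineurin genes of 5 annotated was higher in KO, where 1063 of all 2223 genes were. Ppp3ca, the alpha catalytic subunit, was listed at 0 in KO and had 0.724 in WT (chr3:136598570-136598638, 0 KO and 2 WT libraries). Ppp3r1, the calcium-binding regulatory subunit, had 1 footprint listed at 0 in KO and 0.246 in WT and another with 0.284 and 0.349, both in 0 KO libraries. Both also overlap Wdr92 on the same strand, and without the first the log2 ratio of Ppp3r1 went from -1.06 to -0.29. Ppp3cb, the beta catalytic subunit, had 0.358 and 0.543 (-0.60) in 1 KO library. Of the 4 calcineurin footprints, 3 were thus in no KO library, beside 27.94% of all footprints. Each of the 4 met the rule of 2 libraries of either genotype through WT alone. Their lower KO values are therefore not independent of how footprints were chosen. The median G+C content of the 4 was 36.64%. The part of library number and G+C content in the result was not tested.

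Of the 10 genes of PP4 to PP6, 3 regulatory genes had footprints. Ppp4r1 was higher in KO at both (0.303 and 0.231, then 1.16 and 0.647), Ppp6r1 had 0.415 and 0.342, and Ppp6r3 was lower, with 0.310 and 1.20 (-1.94). The footprints of Ppp6r1 and Ppp6r3 were in no KO library, and the KO value of Ppp6r3 was identical to that of 6 other footprints.

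Footprints of the same gene often went in different directions, in these genes as in the whole table. Of 20 phosphatase genes with at least 2 footprints, 12 had footprints both higher and lower in KO, 3 had all higher and 5 all lower. In the whole table these numbers were 871, 201 and 126 of 1198 genes. The range of log2 ratios within a gene was over 1 in 15 of the 20, for which no share of the whole table is given here. The genes with all footprints lower were Dusp1, Dusp4, Ppp2r5c, Ppp3r1 and Ptpn12, and those with all higher Ppp2r2a, Ppp4r1 and Ptpra. Footprints were centred at a median of 792 nt into the 3′ UTR, or 45.02% of its length, against 900 nt and 45.604% for all footprints.

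**Figure D3:**
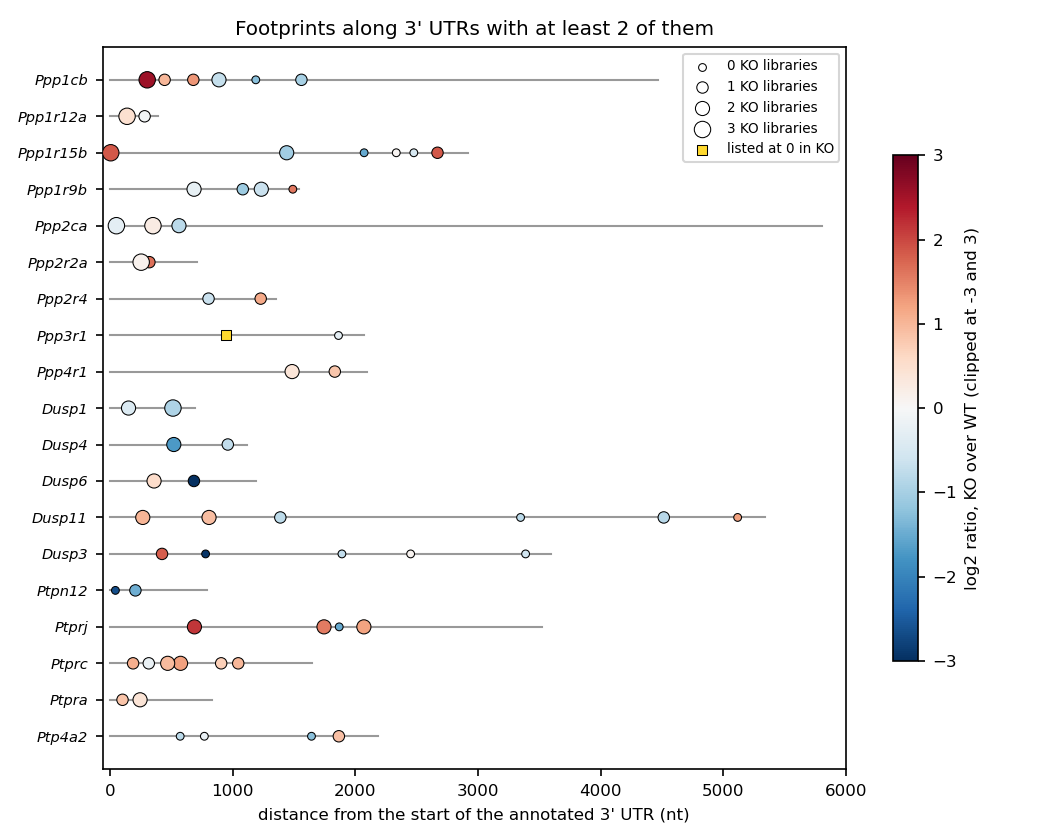
Lines are the annotated 3′ UTRs of the phosphatase genes with at least 2 footprints in them, from start (0) to end in nt, and circles are footprint centres. Colour gives the log2 ratio, red for higher and blue for lower in KO, circle size the number of KO libraries and a yellow square a footprint listed at 0 in KO. Ppp1cb changes from red to blue along its 3′ UTR, while Ptprc is red at 5 of 6 footprints.

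The number of KO libraries moved with the ratio, a relation partly fixed beforehand. Library number and KO occupancy come from the same KO libraries. A footprint in fewer than 2 KO libraries also needed 2 WT libraries to be listed. Of the 80 footprints, 79 were in at least 2 WT libraries (98.75%; 94.88% of all) and 28 in at least 2 KO libraries (35%; 40.14% of all). The 25 in no KO library had a median log2 ratio of -0.82, the 27 in 1 KO library -0.02 and the 28 in 2 or 3 libraries 0.46. In the whole table these medians were -1.32, -0.04 and 0.55. Among the 27 phosphatase footprints with 2 or more WT and 2 or more KO libraries, 8 were at least 2-fold higher in KO and 2 lower. Of all 2196 such footprints, 26.2% were higher and 5.01% lower. That subset leaves out footprints found in few KO libraries, so it does not give the direction of the whole.

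**Figure D4:**
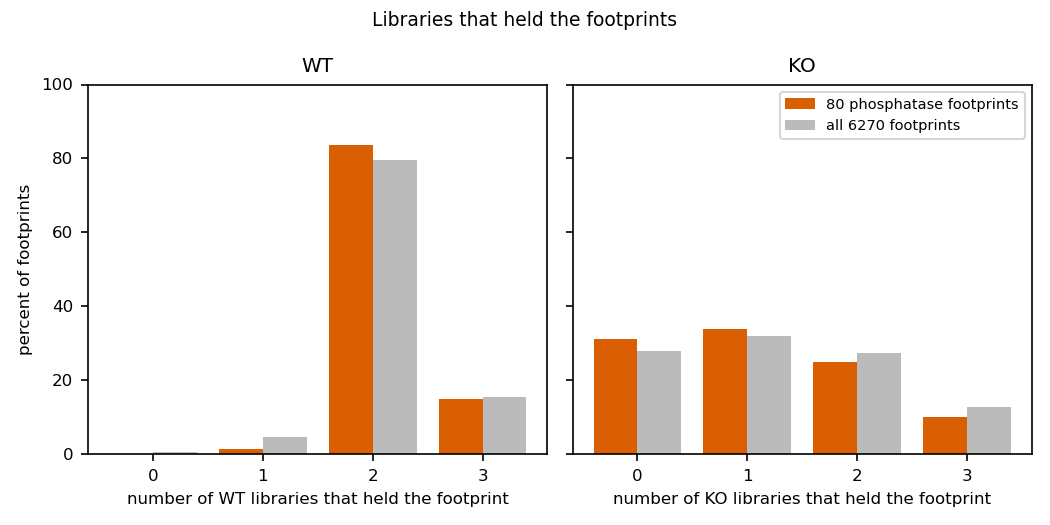
Bars give the percent of footprints held by 0, 1, 2 or 3 libraries of WT (left) and KO (right), in orange for the 80 phosphatase footprints and in grey for all 6270. In WT 83.75% of the phosphatase footprints were in 2 libraries, and in KO 31.25% were in none and 33.75% in 1.

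Of the 25 footprints in no KO library, 23 nonetheless had a KO occupancy above 0, as did 1462 of 1752 in the whole table. In 17 of these 23 the KO value was identical to that of another footprint, as it was in 13 of the 55 found in at least 1 KO library. The table as a whole was similar, with 968 of 1462 and 1021 of 4518. In each of these 30 cases at least 1 of the equal footprints lay outside the gene in question. Among the 8 genes at least 2-fold lower in KO, no KO library held a footprint of Ppp3ca, Ppp3r1, Ppp6r3 or Ptpn7. The sources used here do not say how such values were made, and their part in the ratios, low or high, was not tested.

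The ratio also moved with base composition. The 48 phosphatase footprints with a G+C content below the table median had a median log2 ratio of -0.38, and the 32 at or above it 0.44. Over the table these medians were -0.41 and 0.31. G+C content and ratio had a Spearman rho of 0.271 over the 80 and of 0.325 over the table, where footprints of a gene share a transcript. Ptpre (59.34%) and Ptpn6 (50.79%) were above the table median of 42.857%, and Ptpn7 (33.33%), Ppp3ca (31.88%) and the Dusp6 footprint lower in KO (36.36%) were below it. Others went against this relation. The Dusp22 footprint (41.1%) and the first of Ppp1cb (40.28%) were below the table median and higher in KO. Both intron footprints of Ppp2r5c (43.42% and 46.59%) were above it and lower in KO. The receptor phosphatase footprints, with a median G+C content of 39.99%, had a median log2 ratio of 0.97. The part of base composition in these ratios was not tested.

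On the transcript strand, the motif TGTANATA, which Pumilio proteins recognise, lay in 5 of the 80 footprints (6.25%; 3.812% of all). These were the strongest Dusp1 footprint, the Ptpn6 footprint, 1 of Ptpra and 2 of Ppp1r9b. The pentamer ATTTA of AU-rich elements lay in 8 (10%; 11.95% of all), among them footprints of Ppp1cb, Ppp1r12c, Ppp2r2a, Ptprc and Ptprj.

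Genes around these phosphatases were taken as lists, with sums over footprints. For comparison with each list, 1063 of all 2223 genes were higher and 1160 lower in KO. Of MAP kinases and their activators, 7 of 14 had footprints, 5 higher and 2 lower in KO. Map2k4, an activator of JNK, had sums of 2.13 (KO) and 0.407 (WT). The p38 kinase Mapk14 had 0.221 and 0.0630, while the p38 activator Map2k3 had 0.160 and 0.380. Of tyrosine kinases, 4 of 10 were measured, 2 in each direction. Lyn, a Src-family kinase of myeloid cells, was higher in KO at all 6 footprints (4.53 and 2.73).

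Of receptors with an inhibitory motif that recruits Ptpn6 or Ptpn11, 6 of 13 were measured, 2 higher and 4 lower in KO. Clec12a, a lectin of myeloid cells, had 1.90 and 0.577, and Sirpa, the receptor for CD47, 0.379 and 0.673. Of Nfat and Rcan genes, grouped by name and not by shown regulation by calcineurin, 4 of 6 were measured. Nfat5 (1.84 and 0.577), Nfatc1 and Nfatc2 were higher in KO, and Rcan3, a calcineurin inhibitor, was lower (0.806 and 2.89). Of 40 other genes of phosphatases and related proteins, 13 were measured, 8 higher and 5 lower. They included the lysosomal acid phosphatase Acp2 with 11 footprints (4.38 and 3.20) and Ctdsp1, a phosphatase of RNA polymerase II (0.0445 and 0.429).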

How the data were processed

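Occupancy was deposited as a ratio, footprint signal divided by the authors by RNA-Seq transcript expression per the series design text, with 1 value per genotype. Per the submitters' processing notes, Bowtie 0.12.8 and bedtools were used with build mm9. The sources used here do not say how libraries were combined. Coordinates, deposited in BED format, are printed counted from 1. Footprints were placed on NCBIM37, the assembly of mm9, with GENCODE vM1, by any overlap on the strand. For counts over all genes a footprint went to 1 gene, by annotation class (3′ UTR, coding, 5′ UTR, other exon, intron) and then longest overlap. Log2 ratios of KO over WT used a pseudocount of 0.00161, 50% of the smallest value above 0. It is small beside most values, so it shrinks their ratios little and low values can give large ratios. With a pseudocount of 1, the footprints at least 2-fold higher and lower went from 19 and 17 to 3 and 2. Gene values are sums over footprints. Footprints listed at 0 in KO stayed in medians and counts and have no fold. Medians have 95% intervals from order statistics, over footprints, which are not replicates. Sequences were read with pysam 0.24.0 and samtools 1.23.1. Motifs were searched on the transcript strand only, overlaps allowed. A match to bases 2 to 7 followed by A was counted only where bases 2 to 8 did not match. This site form was added after the data were examined. Functions were tested on simulated data.

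The genes, lists and alternatives were chosen with earlier results of these data known. Genes were described by role. Those with a footprint in all 6 libraries, most footprints, the highest or lowest ratio or a 0 in KO within a role are given in full, as are Dusp6 and Ptpre. Further genes were named after their values were seen. Some genes of the surrounding lists are not reported here by name.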

Additional observations from a re-analysis of the deposited data

How the results depend on the processing

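No paired analysis was possible because the table holds 1 combined value per genotype, and for the same reason no library could be left out. The main counts were 19 footprints at least 2-fold higher and 17 lower in KO, and 3 and 8 genes. With a pseudocount of 1 there were 3 and 2 footprints, and 1 gene lower. Keeping footprints whose mean occupancy reached the table median, 10 and 9 of 38 passed, and 5 genes were lower. Keeping footprints with 2 or more WT and 2 or more KO libraries, 8 and 2 of 27 passed and 1 gene was lower. The median log2 ratio there was 0.42, the same as over all 2196 such footprints (0.42). Dusp6 turned from -2.38 to 0.55, while Ppp1cb, Ptprc and Ptprj passed 2-fold (1.39, 1.09 and 1.54). By strongest footprint 6 genes were higher. Keeping footprints of 1 or more KO libraries, chosen after the data were examined, 6 of 55 were lower, 5 genes were higher and 3 lower, and the median was 0.42. No whole-table value is given for that filter. These filters keep fewer footprints by construction. Leaving out footprints listed at 0 in KO, keeping 3′ UTR footprints alone or giving each footprint to 1 gene kept each count within 1.5 times the main one. By gene, 8 of 33 changed side of 2-fold with the pseudocount of 1 and 5 of 33 by strongest footprint. Depth is unknown, so the error of low values cannot be given.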
